A study of Homo sapiens with 12 samples.

Results

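The genes described here encode the collagens, the laminins and the nidogens, which make up the fibrils and sheets of the extracellular matrix. They were taken as every protein-coding gene of the expression table with a symbol of the form COL, digits, A, digits, or of LAMA, LAMB or LAMC with a digit, together with NID1 and NID2. This gave 46 of the 16299 genes in the table, in 3 classes: 10 fibrillar collagens, 18 genes of the basement membrane (6 chains of collagen IV, 10 laminin chains and 2 nidogens) and 18 other collagens. A further 12 genes of these families were not analysed here, among them COL1A2, the partner chain of COL1A1 in type I collagen, and LAMA1 and LAMB4.

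RNA was measured in 12 libraries of PANC1 and BXPC3, 2 established human cell lines of pancreatic ductal adenocarcinoma. Each line was cultured in 7.5% GelMA, in 5% GelMA or in collagen, with 2 libraries in each of the 6 groups. GelMA is gelatin, itself denatured collagen, that carries methacryloyl groups through which it can be cross-linked into a gel. PANC1 is a poorly differentiated line, and BXPC3 is an epithelial line without functional SMAD4, a mediator of TGF-beta signalling. Both lines were kept in the same serum-supplemented medium. The sources used here do not give the gel stiffness, the culture time or whether replicates are separate cultures, so p-values measure the spread between these libraries alone, which may be technical. In bulk RNA, fewer cells of a type and less RNA per cell cannot be told apart.

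Collagens are trimers of alpha chains, and the chains that share a trimer are usually made together. Fibrillar collagens assemble into the striated fibres of the stroma, the sheet-forming collagen IV and the laminins, which are cross-shaped trimers of an alpha, a beta and a gamma chain, build the basement membrane under epithelia, and nidogens link the networks of both. Pancreatic ductal adenocarcinoma is known for a dense collagen-rich stroma, most of which is laid down by fibroblasts, while the carcinoma cells contribute much of the basement membrane.

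The values are log2 RPKM, that is the reads of a gene scaled to its length and to the size of the library. On this log scale 0 stands for 1 RPKM. Comparing levels between genes, as in the sums and shares below, rests on gene lengths that the sources used here do not give. Fold changes are differences between group means on this scale, given with the standard error (SE) of a limma fit over 15794 genes, and a gene was called when its p, adjusted by Benjamini-Hochberg over those genes, was under 0.05. All 46 members of the table passed the filter of 1 RPKM or more in at least 2 libraries. A level of at least 1 RPKM in every library of a line was reached by 34 members in PANC1 and by 28 in BXPC3, and by 20 of them in both. The epithelial markers EPCAM, CDH1, KRT8, KRT18 and KRT19 lay at 3.71 log2 RPKM or higher in all 12 libraries, while KRT7 lay between 1.80 and 2.75 in PANC1 and between 10.24 and 10.74 in BXPC3. SMAD4 lay at 15.4 to 23.4 RPKM in PANC1 and at 0.0165 to 0.0246 RPKM in BXPC3. Across all genes, the correlation between the replicates of each group was 0.9922 to 0.9950.

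The lines differed in the summed level of each class. Summed over the 10 fibrillar genes, PANC1 had 737 to 912 RPKM (median 804) and BXPC3 104 to 116 RPKM (median 110), so that the ranges lay far apart. The 18 basement membrane genes summed to 1090 to 1330 RPKM in PANC1 (median 1225) and to 3090 to 3300 RPKM in BXPC3 (median 3155). The 18 other collagens summed to 970 to 1140 RPKM in PANC1 (median 1100) and 1700 to 2570 RPKM in BXPC3 (median 1890). PANC1 was thus above BXPC3 in the fibrillar sum and below it in the sums of the other classes, in every library.

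A single gene led most of these sums. In PANC1 the other collagens were led by COL18A1, a basement membrane proteoglycan and the source of endostatin, which supplied 66.5 to 70.4% of the class. COL18A1 was counted in this class and not in the basement membrane sum. Its group means, taken on the log2 scale, were 661 to 780 RPKM in PANC1 and 6.74 to 7.11 RPKM in BXPC3. Its lowest, median and highest levels were 9.34, 9.56 and 9.64 log2 RPKM in PANC1 and 2.65, 2.82 and 2.85 in BXPC3. In BXPC3 the leader was COL17A1, the transmembrane collagen of hemidesmosomes, with 58.7 to 66.4% of the class. Its lowest, median and highest levels were -1.95, -0.88 and -0.19 log2 RPKM in PANC1 and 9.98, 10.22 and 10.74 in BXPC3. Fibrillar expression in BXPC3 was led by COL27A1, a fibrillar collagen best known from cartilage, which held 56.8 to 58.9% of the class and lay at 2.90, 3.46 and 3.63 log2 RPKM in PANC1 and at 5.89, 6.0 and 6.04 in BXPC3.

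Over all matrices, each of the 46 members was called between the lines, where 91.8% of all tested genes were called. Of these members, 26 were higher and 20 lower in PANC1 (50% and 41.9% of all tested genes), and 40 differed at least 2-fold, against 43.7% of all tested genes. Fibrillar genes were higher in PANC1 for 7 of 10, basement membrane genes for 9 of 18 and other collagens for 10 of 18. A level of 1 RPKM or more in all 6 libraries of a line and in 0 of 6 of the other was found for 12 members in PANC1 (among them COL11A1, COL2A1, LAMB2 and COL13A1) and for 5 in BXPC3 (COL17A1, COL5A3, COL8A1, COL4A6 and COL28A1), against 6.3% and 6.45% of all tested genes. Such genes passed the filter through 1 line alone. The map of levels by library shows these splits between the lines.

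**Figure D1:**
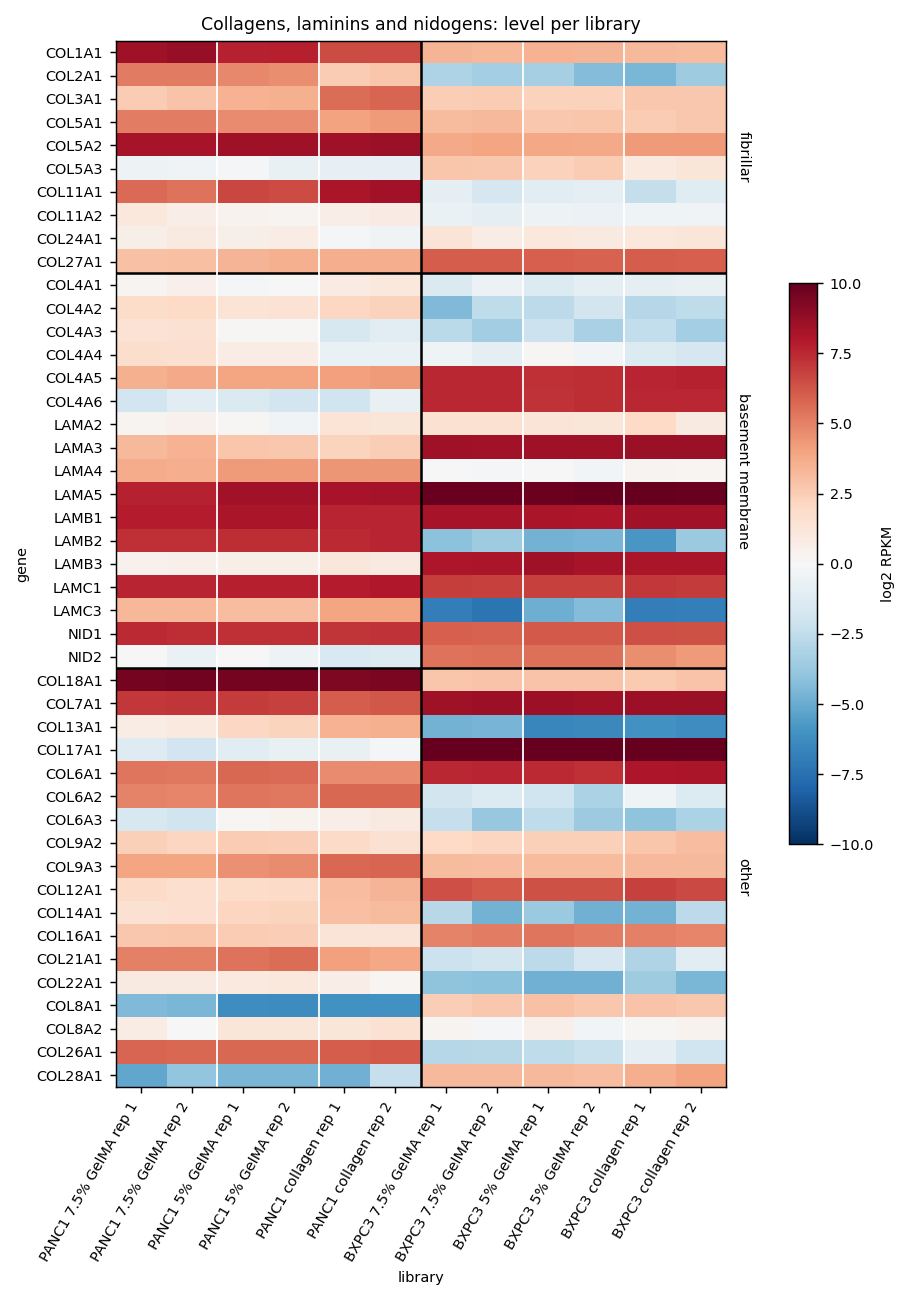
Level of 45 of the 46 genes (rows, grouped by class) in each of the 12 libraries (columns), as colour from -10 to 10 log2 RPKM, with white at 1 RPKM and values beyond the ends shown at the end colour. The black vertical line parts the 6 PANC1 libraries on the left from the 6 BXPC3 libraries on the right, and COL18A1 and COL17A1 are the darkest rows of the other collagens in PANC1 and in BXPC3.

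In PANC1, most of these genes differed between GelMA and collagen, in both directions, and a minority of them by 2-fold or more. The cells in GelMA had more COL1A1, COL2A1, COL5A1, COL4A3 and COL4A4 transcript and less COL3A1, COL11A1, COL13A1, COL9A3 and COL12A1. In all, 34 of 46 members were called, where 55.1% of all tested genes were called. Members rose and fell in equal number, 17 each, against 27.7% and 27.4% of all tested genes, and their median difference was -0.21 log2 against -0.01 for all tested genes. Among them 14 changed at least 2-fold, against 8.86% of all tested genes. By class, 8 of 10 fibrillar genes (4 higher, 4 lower), 14 of 18 basement membrane genes (6 higher, 8 lower) and 12 of 18 other collagens (7 higher, 5 lower) were called. Restricted to the 40 members that reached 1 RPKM in a group mean of PANC1, 31 were called, 15 higher and 16 lower. All tested genes were not counted under this restriction, so these counts cannot be set against the shares above.

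In BXPC3, 16 of 46 members (34.8%) were called in GelMA against collagen, close to the 36.1% of all tested genes. Of these, 6 rose (19.4% of all tested genes) and 10 fell (16.7% of all tested genes), with a median of -0.10 log2 over the 46 members and 0.01 over all tested genes, and 5 changed at least 2-fold, against 2.7% of all tested genes. Among the other collagens all 5 called genes were lower, with 0 called higher in limma and 1 higher at an unadjusted p under 0.05. An unadjusted p under 0.05, in either direction, was found for 7229 of the 15794 tested genes. Fibrillar genes gave 3 higher and 1 lower, and basement membrane genes 3 higher and 4 lower. In BXPC3, 30 members reached 1 RPKM in a group mean, of which 12 were called, 4 higher and 8 lower, again with no count of all tested genes under this restriction.

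**Figure D2:**
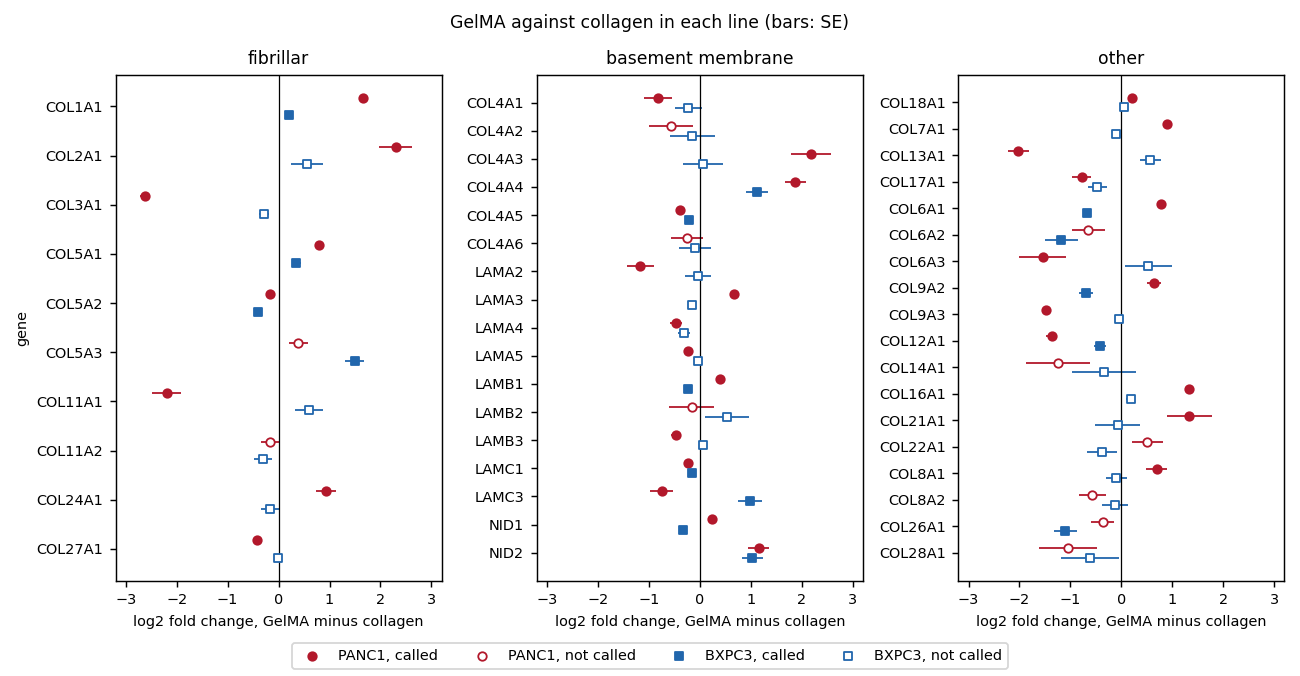
Log2 fold change in GelMA (mean of 5% and 7.5%) minus collagen for 45 of the 46 genes (rows), with bars of 1 SE, by class. Red circles are PANC1 and blue squares BXPC3, filled where called, and the axis runs from lower to higher in GelMA, with PANC1 values from -2.62 for COL3A1 to 2.30 for COL2A1.

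Among the fibrillar collagens of PANC1, the chains moved apart. COL1A1 (ENSG00000108821, chromosome 17, 50183289 to 50201632 on GRCh38), which encodes the main chain of type I collagen, lay at 8.48 and 8.71 log2 RPKM in 7.5% GelMA, 7.72 and 7.75 in 5% GelMA and 6.52 and 6.49 in collagen. COL3A1 (ENSG00000168542, chromosome 2, 188974320 to 189012746), the type III chain found beside type I in soft tissues, lay at 2.51 and 2.86 in 7.5% GelMA, 3.49 and 3.58 in 5% GelMA and 5.62 and 5.84 in collagen. The libraries of the 3 matrices did not overlap for either gene, and their orders were opposite. COL1A1 rose by 1.66 ± 0.06 log2 in GelMA (adjusted p = 2.97e-08) and COL3A1 fell by 2.62 ± 0.10 (adjusted p = 4.77e-08).

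The cartilage fibril chains parted in the same way. COL2A1, the type II chain, lay at 5.18 and 5.16 log2 RPKM in 7.5% GelMA, 4.84 and 4.68 in 5% GelMA and 2.55 and 2.78 in collagen. COL11A1, a type XI chain that sits in the core of such fibrils, lay at 5.65 and 5.43 in 7.5% GelMA, 6.67 and 6.54 in 5% GelMA and 8.16 and 8.38 in collagen. COL2A1 was thus highest and COL11A1 lowest in 7.5% GelMA, again with no overlap between matrices. Between 7.5% and 5% GelMA, COL2A1 was not called, though it was with PANC1 fitted alone. COL11A1 was called between these gels, a call lost when limma was run without a trend and with a replicate block. COL2A1 rose by 2.30 ± 0.32 (adjusted p = 0.000177) and COL11A1 fell by 2.20 ± 0.28 (adjusted p = 0.000102). COL11A2, the other type XI chain in the table, had values of 0.27 to 1.06 log2 RPKM in PANC1 and was not called (-0.17 ± 0.18, adjusted p = 0.442).

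Type V collagen, which sets the diameter of type I fibrils, changed unevenly between its chains. In PANC1, COL5A1 lay at 5.09 and 5.15 log2 RPKM in 7.5% GelMA, 4.71 and 4.69 in 5% GelMA and 3.99 and 4.24 in collagen, and rose by 0.80 ± 0.08 (adjusted p = 2.33e-05). COL5A2, with the highest mean of the fibrillar genes in PANC1, lay at 8.23 and 8.23 in 7.5% GelMA, 8.50 and 8.45 in 5% GelMA and 8.44 and 8.61 in collagen. Its 5% GelMA and collagen libraries overlapped, and its fall of 0.17 ± 0.05 (adjusted p = 0.0154) was no longer called without PANC1 collagen replicate 2, with adjusted p between 0.00372 and 0.205 over its alternatives. COL24A1 rose by 0.93 ± 0.19 (adjusted p = 0.00194) and COL27A1 fell by 0.42 ± 0.05 (adjusted p = 6.69e-05) in PANC1. COL24A1 was low there, at -0.38 to 0.88 log2 RPKM, with a collagen group mean of 0.851 RPKM.

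With COL1A1 higher and COL3A1 and COL11A1 lower, the make-up of fibrillar transcripts in PANC1 differed between matrices while the sums in GelMA and in collagen overlapped. The sum was 796 and 852 RPKM in 7.5% GelMA, 754 and 737 in 5% GelMA and 811 and 912 in collagen. COL1A1 was the top gene in 7.5% GelMA, with 44.8 and 49.1% of the sum, and COL5A2 was the top gene in 5% GelMA, with 47.9 and 47.5%, and in collagen, with 42.9 and 42.9%.

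BXPC3 had its largest fibrillar change in COL5A3, the type V chain that is little expressed in PANC1. COL5A3 (ENSG00000080573, chromosome 19, 9959561 to 10010471) lay at 2.79 and 2.73 log2 RPKM in 7.5% GelMA, 2.34 and 2.53 in 5% GelMA and 1.01 and 1.21 in collagen, without overlap. It rose by 1.49 ± 0.19 in BXPC3 (adjusted p = 0.000308), and was not called in PANC1 (0.39 ± 0.19, adjusted p = 0.108). COL5A2 lay at 3.82 and 3.95 in 7.5% GelMA, 3.83 and 3.77 in 5% GelMA and 4.25 and 4.27 in collagen, a fall of 0.41 ± 0.05 (adjusted p = 0.00027). COL5A1 lay at 3.15 and 3.21 in 7.5% GelMA, 2.68 and 2.74 in 5% GelMA and 2.51 and 2.69 in collagen. One of its 5% GelMA libraries lay below a collagen library, and its rise of 0.35 ± 0.08 (adjusted p = 0.00845) was not called without BXPC3 collagen replicate 1, with adjusted p of 0.00424 to 0.0728 over its alternatives. COL1A1 in BXPC3 rose by 0.20 ± 0.06 (adjusted p = 0.023), a call lost with BXPC3 fitted alone (adjusted p = 0.0834) and when collagen replicate 2, 5% GelMA replicate 1 or 7.5% GelMA replicate 1 of BXPC3 was left out, with adjusted p of 0.00678 to 0.143 over its alternatives.

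**Figure D3:**
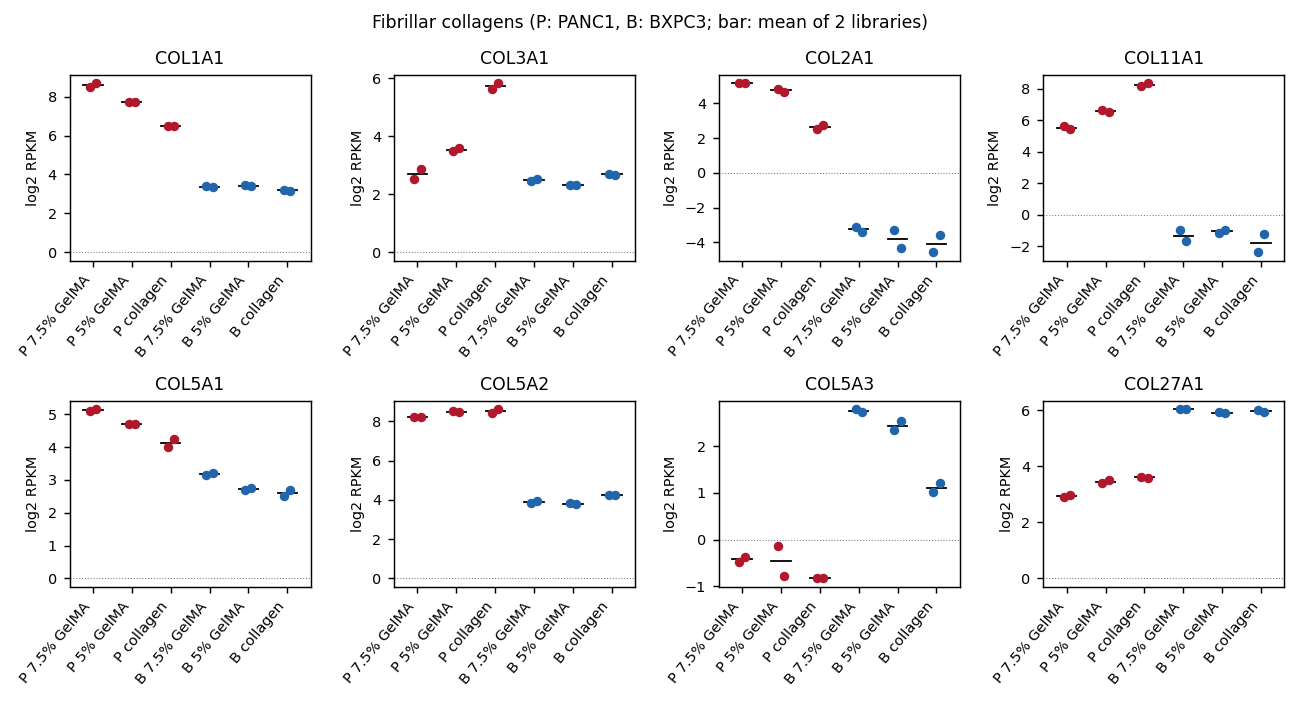
Log2 RPKM of 8 fibrillar collagens in each library (points) with the mean of the 2 libraries of a group (bars), with PANC1 in red (P) and BXPC3 in blue (B), each in 7.5% GelMA, 5% GelMA and collagen from left to right. The axes differ between panels and the dotted line is 1 RPKM. COL1A1 stood at 8.48 and 8.71 and COL3A1 at 2.51 and 2.86 in PANC1 in 7.5% GelMA, the opposite ends of their ranges in PANC1.

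Collagen IV has 6 chains, encoded by 3 gene pairs that lie head to head and so share the stretch between their starts. COL4A1 assembles with COL4A2, COL4A3 with COL4A4 and COL4A5, and COL4A5 also with COL4A6. In GENCODE 29 on GRCh38, COL4A4 and COL4A3 are 111 bases apart on chromosome 2 and COL4A6 and COL4A5 are 346 bases apart on chromosome X, while COL4A1 and COL4A2 on chromosome 13 overlap at their starts by 1422 bases. The promoters of the COL4A4 and COL4A3 pair, whose genes rose together in PANC1, and of the COL4A6 and COL4A5 pair, where the lines differed, are given from RefSeq on GRCh38.p14, each on its own gene's strand, from 250 bases before to 50 bases after the start. The positions are chr2:227164156-227164455 (minus strand) for COL4A4, chr2:227164374-227164673 (plus strand) for COL4A3, chrX:108439409-108439708 (minus strand) for COL4A6 and chrX:108439588-108439887 (plus strand) for COL4A5. Capitals mark every match, on either strand, to the motif ACGTG, the motif GCGTG, the motif GGGCGG or the motif CCAAT.
COL4A4: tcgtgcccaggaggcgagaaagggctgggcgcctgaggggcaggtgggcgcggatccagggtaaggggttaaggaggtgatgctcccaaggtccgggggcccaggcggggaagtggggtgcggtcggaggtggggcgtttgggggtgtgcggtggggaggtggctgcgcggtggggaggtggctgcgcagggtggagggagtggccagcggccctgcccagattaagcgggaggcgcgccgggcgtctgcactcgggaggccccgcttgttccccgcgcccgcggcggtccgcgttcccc
COL4A3: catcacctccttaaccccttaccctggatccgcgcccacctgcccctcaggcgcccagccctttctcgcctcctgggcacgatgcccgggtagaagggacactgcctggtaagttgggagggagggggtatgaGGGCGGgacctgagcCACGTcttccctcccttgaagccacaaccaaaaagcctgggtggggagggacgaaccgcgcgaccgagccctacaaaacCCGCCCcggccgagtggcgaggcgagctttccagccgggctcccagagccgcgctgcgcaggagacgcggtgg
COL4A6: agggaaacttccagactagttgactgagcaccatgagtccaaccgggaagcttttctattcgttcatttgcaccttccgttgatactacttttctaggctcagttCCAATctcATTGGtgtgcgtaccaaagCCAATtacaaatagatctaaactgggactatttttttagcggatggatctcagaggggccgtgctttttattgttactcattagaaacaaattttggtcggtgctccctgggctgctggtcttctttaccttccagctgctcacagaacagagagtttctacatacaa
COL4A5: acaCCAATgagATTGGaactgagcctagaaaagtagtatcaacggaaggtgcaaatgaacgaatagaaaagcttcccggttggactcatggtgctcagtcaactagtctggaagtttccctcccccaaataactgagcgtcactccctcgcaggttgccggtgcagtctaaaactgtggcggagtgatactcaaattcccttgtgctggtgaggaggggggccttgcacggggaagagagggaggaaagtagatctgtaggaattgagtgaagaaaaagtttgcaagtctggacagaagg

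The windows of COL4A4 and COL4A3 share 82 bases, with 418 bases between their RefSeq starts, and those of COL4A6 and COL4A5 share 121 bases, with 379 bases between the starts. The motif letters fell unevenly on the pairs. The COL4A3 window held 1 ACGTG and 2 GGGCGG matches and the COL4A4 window none of the 4 motifs, while the COL4A6 window held 3 and the COL4A5 window 2 CCAAT matches, with the CCAAT matches of COL4A5 in the shared stretch. Of 35116 promoter windows of this length, 21.4% held ACGTG, 36.5% GCGTG, 45.0% GGGCGG and 34.6% CCAAT. For 35 of the 46 members there were 46 windows, some genes having several, of which 5 held ACGTG, 14 GCGTG, 31 GGGCGG and 13 CCAAT. A match is a description of these letters and was not tested as a site.

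In PANC1, COL4A3 and COL4A4 rose together with GelMA. COL4A3 (ENSG00000169031, chromosome 2, 227164565 to 227314792) lay at 1.41 and 1.53 log2 RPKM in 7.5% GelMA, 0.12 and 0.10 in 5% GelMA and -1.64 and -1.13 in collagen. COL4A4 (ENSG00000081052, chromosome 2, 227002711 to 227164453) lay at 1.72 and 1.57 in 7.5% GelMA, 0.78 and 0.78 in 5% GelMA and -0.68 and -0.64 in collagen. For both genes the 3 matrices were ordered without overlap, from under 1 RPKM in collagen to the highest level in 7.5% GelMA. Between 7.5% and 5% GelMA, COL4A4 was called and COL4A3 was not. With PANC1 fitted alone, COL4A3 was called there too. The rises were 2.18 ± 0.39 for COL4A3 (adjusted p = 0.000899) and 1.87 ± 0.21 for COL4A4 (adjusted p = 3.68e-05). Exons of COL4A3 overlap an opposite-strand gene, and the sources used here do not say whether reads were counted by strand.

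The other collagen IV chains of PANC1 did not share this rise. COL4A5, the most abundant of them, lay at 3.56 and 3.78 log2 RPKM in 7.5% GelMA, 3.94 and 3.96 in 5% GelMA and 4.12 and 4.28 in collagen, a fall of 0.39 ± 0.06 (adjusted p = 0.000518). COL4A1 fell by 0.82 ± 0.27 (adjusted p = 0.025), a call lost without either PANC1 collagen library, without PANC1 5% GelMA replicate 1 and without PANC1 7.5% GelMA replicate 1, with adjusted p of 0.00176 to 0.154 over its alternatives. COL4A2 lay at 1.82 and 1.98 in 7.5% GelMA, 1.34 and 1.41 in 5% GelMA and 2.1 and 2.30 in collagen and was not called (-0.57 ± 0.44, adjusted p = 0.296). In the BXPC3 libraries, which share the estimate of spread, it ranged from -4.39 to -1.82. With PANC1 fitted alone its adjusted p was 0.00472, in a range of 0.000957 to 0.557 over its alternatives. As shares of the summed RPKM of the 6 chains, COL4A3 made up 11.4 to 11.7% in 7.5% GelMA, 4.81 to 4.96% in 5% GelMA and 1.31 to 1.62% in collagen, and COL4A5 51.9 to 53.9%, 70.0% and 68.9 to 70.5% in the same groups.

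In BXPC3, 2 chains made up nearly the whole of collagen IV. COL4A5 lay at 3.56, 3.95 and 4.28 log2 RPKM in PANC1 (lowest, median and highest of 6 libraries) and at 7.32, 7.50 and 7.69 in BXPC3. COL4A6 lay at -1.96, -1.67 and -0.73 in PANC1 and at 7.26, 7.53 and 7.57 in BXPC3. Its level differed between lines by -8.97 log2, where that of its head-to-head neighbour COL4A5 differed by -3.57 ± 0.04 (adjusted p = 1.18e-13). COL4A6 passed the filter through BXPC3 alone, so a gap between the lines was built in, and its size depends on the unknown offset. COL4A5 and COL4A6 held 51.9 to 70.5% and 1.05 to 2.15% of the chain sum in PANC1, and 48.6 to 52.3% and 47.4 to 51.0% in BXPC3.

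COL4A4 also rose with GelMA in BXPC3, at a low level. It lay at -0.46 and -0.99 log2 RPKM in 7.5% GelMA, 0.11 and -0.26 in 5% GelMA and -1.40 and -1.65 in collagen, a rise of 1.12 ± 0.21 (adjusted p = 0.00231). COL4A3, its neighbour, ranged from -3.44 to -2.13 in BXPC3 and was not called (0.06 ± 0.39, adjusted p = 0.925). COL4A5 fell by 0.22 ± 0.06 in BXPC3 (adjusted p = 0.021), a call lost without BXPC3 collagen replicate 2, 5% GelMA replicate 1 or 7.5% GelMA replicate 2, with adjusted p of 0.00697 to 0.151 over its alternatives.

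**Figure D4:**
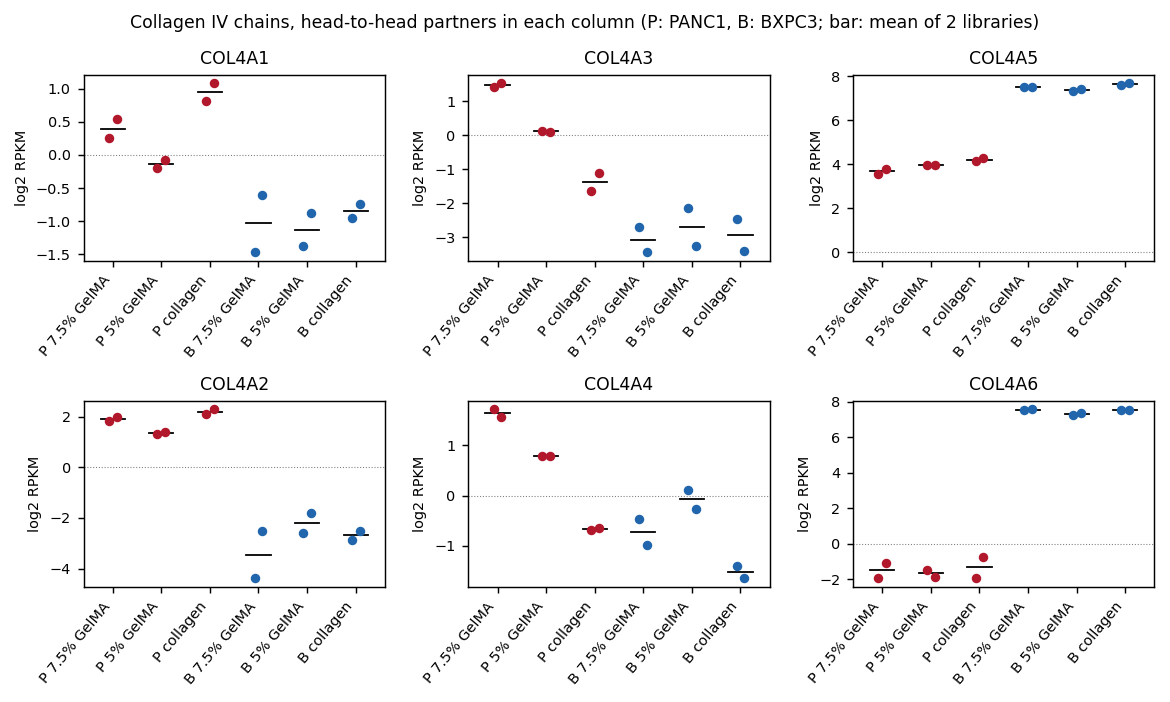
Log2 RPKM of the 6 collagen IV chains in each library (points) with group means (bars), head-to-head partners in the same column, PANC1 (P, red) left of BXPC3 (B, blue), each in 7.5% GelMA, 5% GelMA and collagen. The axes differ between panels and the dotted line is 1 RPKM. In PANC1, COL4A3 and COL4A4 lay highest in 7.5% GelMA, at 1.41 to 1.53 and 1.57 to 1.72, while COL4A6 stayed under 1 RPKM in all 6 PANC1 libraries.

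The lines shared some laminin chains and differed in others. LAMA5, a chain of laminins found under most epithelia and the gene with the highest mean of its class in both lines, lay at 7.72, 8.28 and 8.38 log2 RPKM in PANC1 and at 9.78, 9.88 and 10.00 in BXPC3. LAMA3 and LAMB3 encode chains of the laminin that anchors hemidesmosomes. Their medians were 2.70 and 0.57 log2 RPKM in PANC1 and 8.48 and 8.17 in BXPC3. LAMB2, a beta chain known from kidney and nerve-muscle junctions, lay instead at 7.33, 7.40 and 7.58 in PANC1 and at -5.85, -4.36 and -3.59 in BXPC3. This was the widest split of any member upwards in PANC1 (11.86 log2). LAMB2 passed the filter through PANC1 alone, so a split between the lines was built in, and its size depends on the unknown offset.

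The chain shares show the same split for LAMB2 and LAMB3, while LAMB1 was a main beta chain in both lines. LAMB1 held 50.9 to 63.2% of the beta chains' summed RPKM in PANC1 and 43.9 to 54.2% in BXPC3. Of the beta chains' summed RPKM, LAMB2 held 36.5 to 48.7% and LAMB3 0.316 to 0.569% in PANC1, and LAMB2 0.00276 to 0.0143% and LAMB3 45.8 to 56.1% in BXPC3. LAMA5 was the main alpha chain in both, with 89.5 to 92.7% in PANC1 and 70.2 to 74.3% in BXPC3.

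**Figure D5:**
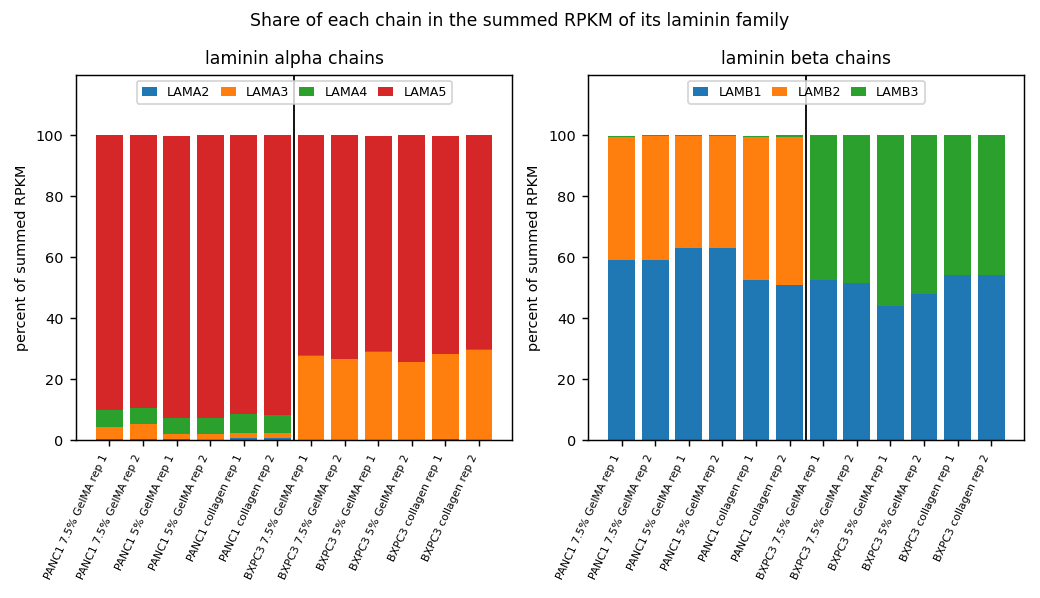
Percent of the summed RPKM of the alpha and of the beta laminin chains held by each chain (stacked colours) in each library (bars), with the 6 PANC1 libraries left of the vertical line and the 6 BXPC3 libraries right of it. In the beta panel LAMB1 is present on both sides (50.9 to 63.2% in PANC1 and 43.9 to 54.2% in BXPC3). The rest changes at the line, from LAMB2 (36.5 to 48.7% in PANC1) to LAMB3 (45.8 to 56.1% in BXPC3).

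With GelMA, 2 of 10 laminin chains rose and 6 fell in PANC1, against 27.7% and 27.4% of all tested genes. LAMA3 lay at 3.22 and 3.46 log2 RPKM in 7.5% GelMA, 2.74 and 2.67 in 5% GelMA and 2.23 and 2.48 in collagen, a rise of 0.67 ± 0.07 (adjusted p = 4.03e-05). LAMB3, which partners it, fell by 0.48 ± 0.08 (adjusted p = 0.000772), so that these partners moved in opposite directions. LAMA2, the alpha chain of muscle and nerve laminin, lay at 0.28 and 0.40 in 7.5% GelMA, 0.12 and -0.34 in 5% GelMA and 1.39 and 1.18 in collagen, a fall of 1.17 ± 0.26 (adjusted p = 0.00368).

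Among the rest, LAMA5 lay at 7.73 and 7.72 log2 RPKM in PANC1 in 7.5% GelMA, 8.38 and 8.37 in 5% GelMA and 8.23 and 8.34 in collagen. Its 5% GelMA libraries were the highest and its 7.5% GelMA libraries the lowest, and the mean fell by 0.24 ± 0.06 (adjusted p = 0.00701). LAMA4 fell by 0.47 ± 0.12 (adjusted p = 0.00629), LAMC1 by 0.24 ± 0.04 (adjusted p = 0.000527) and LAMC3 by 0.75 ± 0.23 (adjusted p = 0.0175). Without PANC1 collagen replicate 2 the calls of LAMA5, LAMA4 and LAMC3 were lost, with highest adjusted p of 0.0786, 0.0514 and 0.0858 and lowest of 0.000952, 0.000222 and 4.75e-06 over their alternatives, and that of LAMC3 was also lost without replicate 1.

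LAMB1 and NID1 went opposite ways in the lines. LAMB1 (ENSG00000091136, chromosome 7, 107923799 to 108003255), a widely expressed beta chain, lay in PANC1 at 7.87 and 7.88 log2 RPKM in 7.5% GelMA, 8.19 and 8.19 in 5% GelMA and 7.65 and 7.64 in collagen, and in BXPC3 at 8.23 and 8.22, 8.13 and 8.10, and 8.41 and 8.41 in the same groups. Collagen was thus the lowest matrix in PANC1 and the highest in BXPC3, with no overlap. LAMB1 rose by 0.39 ± 0.02 in PANC1 (adjusted p = 7.97e-07) and fell by 0.24 ± 0.02 in BXPC3 (adjusted p = 8.48e-05), and the difference between the effects was 0.63 ± 0.03 (adjusted p = 1.32e-06). Its exons overlap those of DLD on the other strand.

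NID1, the major nidogen, lay in PANC1 at 7.45 and 7.39 log2 RPKM in 7.5% GelMA, 7.33 and 7.34 in 5% GelMA and 7.12 and 7.19 in collagen. In BXPC3 it lay at 5.96 and 5.92 in 7.5% GelMA, 6.17 and 6.14 in 5% GelMA and 6.42 and 6.36 in collagen, the reverse order. It rose by 0.23 ± 0.03 in PANC1 (adjusted p = 0.000245) and fell by 0.34 ± 0.03 in BXPC3 (adjusted p = 6.97e-05). NID2 (ENSG00000087303, chromosome 14, 52004803 to 52069228), its paralogue, rose in both lines, by 1.15 ± 0.21 in PANC1 (adjusted p = 0.000963) and 1.03 ± 0.21 in BXPC3 (adjusted p = 0.00377). NID2 lay at 0.00 and -0.69 in 7.5% GelMA, 0.01 and -0.51 in 5% GelMA and -1.54 and -1.36 in collagen in PANC1, near or under 1 RPKM, and at 5.45 and 5.49, 5.49 and 5.49, and 4.64 and 4.25 in BXPC3 in the same groups. Exons of NID2 overlap those of RTRAF on the other strand.

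Among the other collagens, the hemidesmosome and anchoring fibril genes were higher in BXPC3. COL7A1 (ENSG00000114270, chromosome 3, 48564073 to 48595267), the collagen of anchoring fibrils, lay in PANC1 at 7.06 and 7.14 log2 RPKM in 7.5% GelMA, 6.96 and 6.85 in 5% GelMA and 6.04 and 6.18 in collagen, a rise of 0.89 ± 0.05 (adjusted p = 6.05e-07). In BXPC3 it was not called (-0.10 ± 0.05, adjusted p = 0.17). COL17A1 in BXPC3 lay at 10.19 and 10.24 in 7.5% GelMA, 9.98 and 10.02 in 5% GelMA and 10.42 and 10.74 in collagen, with every GelMA library below both collagen libraries. The difference was -0.47 ± 0.19 and not called (adjusted p = 0.0778), while with BXPC3 fitted alone the adjusted p was 0.00651, in a range of 0.00198 to 0.402 over its alternatives.

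The chains of collagen VI, which assemble into beaded filaments, went apart in PANC1. COL6A1 (ENSG00000142156, chromosome 21, 45981737 to 46005050) lay at 5.33 and 5.27 log2 RPKM in 7.5% GelMA, 5.75 and 5.70 in 5% GelMA and 4.73 and 4.75 in collagen, a rise of 0.77 ± 0.04 (adjusted p = 3.39e-07). COL6A3 lay at -1.57 and -1.98 in 7.5% GelMA, 0.13 and 0.34 in 5% GelMA and 0.67 and 0.86 in collagen. It fell by 1.54 ± 0.46 (adjusted p = 0.0162), a call lost without either PANC1 collagen library, with adjusted p of 3.05e-05 to 0.0897 over its alternatives. COL6A2 lay at 4.97 and 4.88 in 7.5% GelMA, 5.35 and 5.26 in 5% GelMA and 5.77 and 5.76 in collagen, without overlap. It was not called in the fit of both lines (-0.65 ± 0.32, adjusted p = 0.11), where the BXPC3 libraries ranged from -3.14 to -0.45, and had an adjusted p of 2.84e-05 with PANC1 fitted alone, in a range of 2.84e-05 to 0.261 over its alternatives. COL6A1 made up 56.0 to 56.5% of the collagen VI sum of PANC1 in 7.5% GelMA, 56.1 to 56.7% in 5% GelMA and 32.1 to 32.4% in collagen.

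In BXPC3, COL6A1 fell and was nearly the only collagen VI chain expressed. It lay at 7.54 and 7.61 log2 RPKM in 7.5% GelMA, 7.43 and 7.30 in 5% GelMA and 8.12 and 8.16 in collagen, a fall of 0.67 ± 0.04 (adjusted p = 9.19e-06), and held 99.7 to 99.9% of the chain sum. COL6A2 lay under 1 RPKM in all 6 BXPC3 libraries and fell by 1.18 ± 0.32 (adjusted p = 0.0165), a call lost with BXPC3 fitted alone (adjusted p = 0.0723) and without BXPC3 collagen replicate 1 (adjusted p = 0.161, the highest of its alternatives, which reached down to 0.0029). COL26A1, also under 1 RPKM there, fell by 1.10 ± 0.23 (adjusted p = 0.0045). Fold changes at such levels depend on the unknown offset added before the log, and on the log2(RPKM + 1) scale they were -0.31 for COL6A2 and -0.23 for COL26A1.

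COL13A1, a transmembrane collagen found at sites of cell adhesion, had the largest called fall of the class in PANC1, followed by COL6A3 and then by COL9A3 and COL12A1, which coat fibrils. COL13A1 (ENSG00000197467, chromosome 10, 69801867 to 69964275) lay at 0.77 and 0.96 log2 RPKM in 7.5% GelMA, 2.07 and 2.22 in 5% GelMA and 3.49 and 3.56 in collagen, a fall of 2.02 ± 0.21 (adjusted p = 2.73e-05). COL9A3 (ENSG00000092758, chromosome 20, 62816244 to 62841159), a type IX chain that coats type II fibrils in cartilage, lay at 3.92 and 3.97 in 7.5% GelMA, 4.57 and 4.74 in 5% GelMA and 5.71 and 5.85 in collagen, a fall of 1.48 ± 0.06 (adjusted p = 8.35e-08). Both were ordered from collagen down to 7.5% GelMA with no overlap. Exons of COL9A3 overlap those of TCFL5 on the other strand. COL12A1, which coats type I fibrils, fell by 1.37 ± 0.11 in PANC1 (adjusted p = 4.07e-06).

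Rises in the class were COL16A1, by 1.32 ± 0.08 (adjusted p = 7.5e-07), COL21A1, by 1.33 ± 0.44 (adjusted p = 0.0254), COL9A2, by 0.64 ± 0.14 (adjusted p = 0.00308), and COL8A1, by 0.69 ± 0.21 (adjusted p = 0.0168), beside COL7A1, COL6A1 and COL18A1. COL18A1 in PANC1 lay at 9.57 and 9.64 log2 RPKM in 7.5% GelMA, 9.57 and 9.55 in 5% GelMA and 9.34 and 9.40 in collagen. Its rise was small, 0.21 ± 0.05 (adjusted p = 0.00572), and its call was lost without PANC1 collagen replicate 1, with adjusted p of 0.000743 to 0.0588 over its alternatives. The calls of COL21A1 and COL8A1 were lost without either PANC1 collagen library, and that of COL21A1 also without 5% GelMA replicate 2 or either 7.5% GelMA library of PANC1, with highest adjusted p of 0.13 and 0.873 and lowest of 4.13e-06 and 0.000621 over their alternatives. The call of COL21A1 was also lost when limma was run without a trend. That of COL8A1 was also lost with PANC1 fitted alone (adjusted p = 0.133) and on the log2(RPKM + 1) scale, where its difference was 0.02. COL8A1 lay at 0.0129 to 0.0458 RPKM in the PANC1 libraries. COL17A1, also under 1 RPKM in PANC1, fell by 0.78 ± 0.19 (adjusted p = 0.00581), a call lost without PANC1 collagen replicate 2, with adjusted p of 0.00117 to 0.0847 over its alternatives.

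In BXPC3, COL9A2 and COL12A1 fell with COL6A1. COL9A2 lay at 2.00 and 2.11 log2 RPKM in 7.5% GelMA, 2.37 and 2.40 in 5% GelMA and 2.77 and 3.07 in collagen, a fall of 0.70 ± 0.14 (adjusted p = 0.00366). COL12A1 lay at 6.41 and 6.17 in 7.5% GelMA, 6.34 and 6.36 in 5% GelMA and 6.86 and 6.63 in collagen, a fall of 0.42 ± 0.11 (adjusted p = 0.0126). For both genes every GelMA library lay below both collagen libraries. The call of COL12A1 was lost without BXPC3 collagen replicate 1, with adjusted p of 0.00676 to 0.119 over its alternatives.

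Whether the matrix acted differently on the lines was tested as the PANC1 effect minus the BXPC3 effect. It was called for 24 of 46 members, 13 with a higher and 11 with a lower effect in PANC1, where 39.1% of all tested genes were called (18.5% higher and 20.6% lower). By class these were 9 of 10 fibrillar genes, 7 of 18 basement membrane genes and 8 of 18 other collagens. They include COL11A1, COL2A1, COL4A3, LAMC3, COL13A1 and COL6A3, which lay under 1 RPKM in every BXPC3 library. COL5A3, also among them, lay under 1 RPKM in every PANC1 library. The size of a difference at such levels depends on the unknown offset. The members called in both lines were higher in both for COL1A1, COL5A1, COL4A4 and NID2, lower in both for COL5A2, COL4A5, LAMC1 and COL12A1, and opposite for COL9A2, COL6A1, LAMB1, NID1 and LAMC3. The fall of LAMC1 in BXPC3 (-0.16 ± 0.04, adjusted p = 0.0113) was not called without BXPC3 collagen replicate 1, with adjusted p of 0.00359 to 0.0823 over its alternatives. All 5 opposite genes were called in the test of the difference. LAMC3, whose level in BXPC3 was -7.32 to -4.35 log2 RPKM, was 1 of them (-1.74 ± 0.32, adjusted p = 0.00202), and its BXPC3 effect of 0.98 ± 0.23 (adjusted p = 0.00784) was 0.02 on the log2(RPKM + 1) scale and was called neither there nor with BXPC3 fitted alone, in a range of adjusted p of 0.00281 to 0.821 over its alternatives. The difference was 1.45 ± 0.06 for COL6A1 (adjusted p = 3.14e-07), 1.34 ± 0.20 for COL9A2 (adjusted p = 0.000515) and 0.57 ± 0.05 for NID1 (adjusted p = 1.36e-05).

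A further 21 members were called in PANC1 alone, of which 14 were called in the test of the difference. Another 3 were called in BXPC3 alone (COL5A3, COL6A2 and COL26A1), of which COL5A3 was called for the difference. Of all tested genes 55.1% were called in PANC1 and 36.1% in BXPC3. The shares of all tested genes called in both lines, in 1 alone or in neither were not counted, so these counts cannot be read as a trait of the members. COL6A2 and COL26A1 were also called lower in PANC1 with PANC1 fitted alone and on the log2(RPKM + 1) scale. COL26A1 lay in PANC1 at 5.79 and 5.77 log2 RPKM in 7.5% GelMA, 5.71 and 5.71 in 5% GelMA and 6.08 and 6.15 in collagen, with every GelMA library below both collagen libraries. Its difference there was -0.37 ± 0.23 (adjusted p = 0.192), with an adjusted p of 0.000109 with PANC1 fitted alone, in a range of 0.000109 to 0.42 over its alternatives. The last 9 were called in neither line (among them LAMB2, COL4A2, COL4A6, COL11A2, COL8A2, COL14A1, COL22A1 and COL28A1). Among these 9, COL4A2, LAMB2, COL8A2, COL14A1 and COL22A1 were called in PANC1 both with PANC1 fitted alone and on the log2(RPKM + 1) scale. COL14A1, which coats fibrils, lay in PANC1 at 1.50 and 1.65 log2 RPKM in 7.5% GelMA, 2.17 and 2.19 in 5% GelMA and 3.04 and 3.19 in collagen. It was 1.24 ± 0.63 lower in the fit of both lines (adjusted p = 0.122), with BXPC3 libraries spread from -4.77 to -2.60, and its adjusted p was 5.36e-05 with PANC1 fitted alone, in a range of 1.78e-06 to 0.309 over its alternatives.

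Each GelMA concentration was also set against the same collagen libraries, which both comparisons share. In PANC1, 7.5% GelMA gave 33 called members (16 higher, 17 lower), where 53.8% of all tested genes were called (27.2% higher, 26.6% lower). There 5% GelMA gave 28 (17 higher, 11 lower), where 46.2% were called (23% higher, 23.2% lower). In BXPC3, 7.5% GelMA gave 13 (5 higher, 8 lower), where 29.8% of all tested genes were called (16.1% higher, 13.7% lower), and 5% GelMA gave 17 (6 higher, 11 lower), where 29.9% were called (16.1% higher, 13.7% lower). The last count was 10 without BXPC3 5% GelMA replicate 1.

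The concentrations themselves differed in PANC1. Between 7.5% and 5% GelMA, 19 of 46 members were called, 5 higher and 14 lower in 7.5% GelMA, where 18.7% of all tested genes were called (9.16% higher and 9.56% lower). The 5 that rose were COL1A1 (0.86 ± 0.07, adjusted p = 4.35e-05), COL5A1 (0.42 ± 0.09, adjusted p = 0.0126), LAMA3 (0.63 ± 0.09, adjusted p = 0.000875), COL4A4 (0.87 ± 0.24, adjusted p = 0.0298) and COL8A1 (1.72 ± 0.24, adjusted p = 0.00105). Among those that fell were COL3A1 (-0.85 ± 0.12, adjusted p = 0.00108), COL13A1 (-1.28 ± 0.25, adjusted p = 0.00577), COL9A3 (-0.71 ± 0.07, adjusted p = 0.000213), LAMA5 (-0.65 ± 0.07, adjusted p = 0.000227) and LAMB1 (-0.32 ± 0.03, adjusted p = 8.09e-05). The fall of COL6A3 was the deepest (-2.01 ± 0.53, adjusted p = 0.0255). Leaving out 1 of the 4 PANC1 GelMA libraries left 11 and 10 called members for replicates 1 and 2 of 5% GelMA and 12 for either library of 7.5% GelMA. The calls of COL4A4, COL5A1 and COL6A3 were each lost when any 1 of the 4 PANC1 GelMA libraries was left out, with highest adjusted p of 0.143, 0.0858 and 0.136 and lowest of 0.00142, 0.00644 and 0.000303 over their alternatives. That of COL13A1 was lost without PANC1 5% GelMA replicate 2 (adjusted p of 3.62e-05 to 0.0537 over its alternatives), and COL8A1, under 1 RPKM in both gels, was not called on the log2(RPKM + 1) scale.

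For COL6A1 and LAMB1 in PANC1, among others, the 5% gel had the highest group mean of the 3 matrices. For the members called higher in 7.5% than in 5% GelMA (COL1A1, COL5A1, LAMA3, COL4A4 and COL8A1) the 7.5% gel was the highest. It was also the highest for members not called between the gels, such as COL2A1 and COL4A3. In BXPC3, 2 members were called between 7.5% and 5% GelMA, where 0.0823% of all tested genes were called (13 genes, 0.0443% higher and 0.038% lower). They were COL13A1, higher in 7.5% GelMA (adjusted p = 0.0364), and LAMC3, lower (adjusted p = 0.0199), both far under 1 RPKM in BXPC3. An unadjusted p under 0.05 was found for 10 members and for 1493 of the 15794 tested genes. On the log2(RPKM + 1) scale 0 members were called by limma, with 9 at an unadjusted p under 0.05, as were 1599 of all tested genes.

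Of 33 listed enzymes and chaperones that mature collagen chains, 32 were tested. With GelMA 9 rose and 17 fell in PANC1, where 27.7% and 27.4% of all tested genes did, and 3 rose and 17 fell in BXPC3, where 19.4% and 16.7% did. Their medians were -0.20 log2 in PANC1 and -0.14 in BXPC3, against -0.01 and 0.01 over all tested genes. P4HA1, the catalytic subunit of prolyl hydroxylase, which stabilises the triple helix, fell by 2.17 ± 0.06 in PANC1 (adjusted p = 7.13e-09) and by 1.41 ± 0.06 in BXPC3 (adjusted p = 1.37e-06). PLOD2, a lysyl hydroxylase that prepares cross-links, fell by 0.92 ± 0.06 (adjusted p = 1.25e-06) and 1.62 ± 0.06 (adjusted p = 5.03e-07) in the same lines. LOX, the lysyl oxidase that forms cross-links, fell by 2.06 ± 0.21 in PANC1 (adjusted p = 2.4e-05) and 0.98 ± 0.21 in BXPC3 (adjusted p = 0.00569). TLL1, a protease that trims procollagen, rose by 2.34 ± 0.32 in PANC1 (adjusted p = 0.000157).

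Of 16 listed non-collagen partners of the basement membrane, 13 were tested. With GelMA 7 rose and 2 fell in PANC1 (median 0.35 log2) and 3 rose and 3 fell in BXPC3 (median -0.14), against the same shares and medians of all tested genes. In the test of the difference 8 had a higher and 1 a lower effect in PANC1, against 18.5% and 20.6% of all tested genes. SPARC, a collagen-binding matricellular protein, rose by 2.40 ± 0.26 in PANC1 (adjusted p = 3.1e-05), and HSPG2, which encodes the proteoglycan perlecan, rose by 1.12 ± 0.06 (adjusted p = 3.18e-07). FBLN2, a fibulin that binds nidogens and laminins, fell by 3.14 ± 0.33 in BXPC3 (adjusted p = 0.000103), at levels of -7.5 to -3.7 log2 RPKM, where a fold change depends on the unknown offset.

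Markers of fibroblasts, the usual source of fibrillar collagen in this tumour, were read in the same libraries. Of 10 listed markers 4 had values (PDGFRA, THY1, ACTA2 and MMP2) and the other 6 were not analysed here. Their summed RPKM was 163 to 167 in 7.5% GelMA, 222 to 231 in 5% GelMA and 274 to 286 in collagen in PANC1, and 7.11 to 7.61, 6.12 to 7.13 and 9.35 to 9.94 in BXPC3 in the same groups. The single markers did not all follow the sum between the lines, with 2 called higher in PANC1 (THY1 and MMP2) and 2 lower (PDGFRA and ACTA2). PDGFRA lay at 1.52 to 2.11 log2 RPKM in BXPC3, and ACTA2 at -0.28 to 0.57 in PANC1 and 1.56 to 2.39 in BXPC3. MMP2, at 7.11 to 8.05 log2 RPKM, made up most of the PANC1 sum and was not called for GelMA (-0.61 ± 0.31, adjusted p = 0.12). In the BXPC3 libraries, which share the estimate of spread, MMP2 ranged from -4.12 to -2.67. PDGFRA, at -4.94 to -3.17 in PANC1, rose (1.34 ± 0.20, adjusted p = 0.00027) and was the 1 marker of the 4 called in PANC1. At such levels a fold change depends on the unknown offset. In BXPC3, 1 of the 4 markers was called with GelMA, and it was lower (16.7% of all tested genes were called lower there). The sum was lower in GelMA in PANC1, where COL3A1, COL11A1, COL5A2 and COL27A1 fell and COL1A1, COL2A1, COL5A1 and COL24A1 rose, and its part in these results was not tested.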

How the data were processed

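Poly-A RNA was sequenced in 12 libraries, per the labels' protocols, and HISAT2 2.1.0 and HTSeq were used with GRCh38 (hg38), per the submitters' processing notes. The sources used here do not give the gene lengths, the filter, the strand setting or the annotation. What was deposited is log2 RPKM for 16299 genes, with an unknown offset. The deposited log2 values were taken as quantile normalized, since 13917 ranks held values equal within 0.05 across libraries, so a shift common to most genes cannot be seen and the depth is unknown. No counting interval could be given, and errors come from the spread between libraries.

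Symbols came from a gene name table (16250 IDs) and GENCODE 29 (49 IDs), positions from GENCODE 29, promoters from RefSeq on GRCh38.p14. Genes at 1 RPKM or more in at least 2 libraries were fitted (15794 tested, 505 not) with limma 3.58.1 in R 4.3.3, as 6 group means with a mean-variance trend (6 residual and 3.89 prior degrees of freedom), over 10 comparisons, with Benjamini-Hochberg adjustment within each. GelMA is the mean of 5% and 7.5%. The fit was tested on simulated data. Tables and plots used pandas 2.3.3 and matplotlib 3.10.9. Exons of 11 members overlap those of a gene on the other strand, whose reads cannot be told apart without the strand setting. These members are COL5A3, COL9A3, COL16A1, COL18A1, COL4A2, COL4A3, LAMA2, LAMA4, LAMA5, LAMB1 and NID2.

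The members and lists were chosen with earlier results of these data known. The values of 1 member, which enters the counts, are not reported here. Genes given in full were, per class and line, up to 3 called members with the largest fold change in GelMA among those reaching 1 RPKM in a group mean, and the member with the highest mean. COL1A1, COL5A1 in PANC1, COL27A1 in PANC1, COL7A1, COL6A2, COL14A1, the collagen IV chains beside COL4A3 and COL4A4, the laminin chains beside LAMA2, LAMA5 and LAMB1, and the named partner genes were chosen after their values were seen. The 20 alternatives were the log2(RPKM + 1) scale, no filter, a filter of 3 RPKM, no trend, a robust prior, each line alone, median centring, a replicate block and leaving out each of the 12 libraries.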

Additional observations from a re-analysis of the deposited data

Results flagged for a closer look

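The effect of GelMA against collagen differed between the lines, by the test of the difference itself in limma, for 24 of the 46 members. The values are the PANC1 effect minus the BXPC3 effect in log2 units, so that a negative value is a lower effect in PANC1. Among fibrillar collagens the difference was 1.74 for COL2A1, 1.46 for COL1A1, 1.09 for COL24A1, 0.45 for COL5A1 and 0.24 for COL5A2, and -2.80 for COL11A1, -2.34 for COL3A1, -1.10 for COL5A3 and -0.41 for COL27A1. Among basement membrane genes it was 2.12 for COL4A3, 0.82 for LAMA3, 0.63 for LAMB1 and 0.57 for NID1, and -1.74 for LAMC3, -1.13 for LAMA2 and -0.54 for LAMB3. Among the other collagens it was 1.45 for COL6A1, 1.34 for COL9A2, 1.14 for COL16A1 and 0.99 for COL7A1, and -2.60 for COL13A1, -2.07 for COL6A3, -1.43 for COL9A3 and -0.95 for COL12A1. The BXPC3 levels of COL11A1, COL2A1, COL4A3, LAMC3, COL13A1 and COL6A3 and the PANC1 levels of COL5A3 were under 1 RPKM in every library. For these genes the size of the difference depends on the unknown offset, and it is not evidence of a response that 1 line lacks.

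The calls of 5 of these were lost without certain libraries. They were LAMA2 (adjusted p of 0.00147 to 0.114 over its alternatives), COL6A3 (0.000377 to 0.108), COL5A2 (0.00608 to 0.107), COL4A3 (4.19e-05 to 0.0533) and COL5A1 (0.00426 to 0.0518). LAMA2 lost its call when any library but BXPC3 collagen replicate 1 or PANC1 5% GelMA replicate 1 was left out. COL6A3 lost it without BXPC3 collagen replicate 1, BXPC3 5% GelMA replicate 1, either PANC1 collagen library, PANC1 5% GelMA replicate 1 or PANC1 7.5% GelMA replicate 2. COL5A2 lost it without either BXPC3 collagen library, PANC1 collagen replicate 1 or PANC1 5% GelMA replicate 1. COL4A3 and COL5A1 were lost without PANC1 collagen replicate 1, and each without 1 further library, BXPC3 collagen replicate 1 for COL4A3 and BXPC3 collagen replicate 2 for COL5A1. The calls of LAMA2 and COL5A2 were also lost when limma was run without a trend. Groups of 2 libraries were too small for a search for single libraries far from the others.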

How the results depend on the processing

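Over 10 comparisons of 46 members (460 values), the counts of called members stayed within 1.5 times the main count in 7 comparisons under all 20 alternatives. Between 7.5% and 5% GelMA in BXPC3 (main count 2), limma called 0 members on the log2(RPKM + 1) scale, 1 with the filter of 3 RPKM, 1 with the robust prior, 0 with each line fitted alone and 0 with the replicate block (9, 9, 10, 10 and 12 members at an unadjusted p under 0.05). Of all tested genes, 1599 of 15794 had such a p on the log2(RPKM + 1) scale and 1397 of 14258 with the filter of 3 RPKM. Leaving out 1 library gave 0 to 2 called members for 7.5% minus 5% GelMA in BXPC3, 10 to 17 for 5% GelMA minus collagen in BXPC3 (main count 17, lowest without BXPC3 5% GelMA replicate 1), 10 to 20 for 7.5% minus 5% GelMA in PANC1 (main count 19), 25 to 35 for GelMA minus collagen in PANC1 and 13 to 18 in BXPC3. The directions of 3 values turned: LAMB2 in 5% GelMA minus collagen in BXPC3 ranged from -0.94 (without BXPC3 collagen replicate 1) to 1.18 when 1 library was left out, and the differences between lines were -0.58 for NID2 and 0.46 for COL28A1 on the log2(RPKM + 1) scale. That scale changed 58 of 460 calls or directions and fitting each line alone 55 of 368, while no filter and median centring changed 0. Replicate numbers did not pair the libraries (correlations of deviations -0.05 to 0.08), and the replicate block gave 34 called members for GelMA minus collagen in PANC1 and 17 in BXPC3 (main counts 34 and 16), with 6 calls lost and 4 gained over the 460. Levels under 1 RPKM depend on the unknown offset, and depth, and so counting error, is unknown. The shares of all tested genes called with a library left out or with the replicate block are not given here. The member counts under those settings, here and above, therefore cannot be read as a trait of the members. The causes of these shifts were not tested.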

Other observations

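Receptors of collagen and laminin formed another list of partners, of which 13 of 14 genes were tested. With GelMA 4 rose and 6 fell in PANC1 (median -0.17 log2), and 1 rose and 5 fell in BXPC3 (median -0.19). Over all tested genes 27.7% rose and 27.4% fell in PANC1 (median -0.01), and 19.4% rose and 16.7% fell in BXPC3 (median 0.01). BCAM, a receptor for the LAMA5 chain, rose by 1.32 ± 0.07 in PANC1 (adjusted p = 2.66e-07) and fell by 0.38 ± 0.07 in BXPC3 (adjusted p = 0.0024). ITGB4, the integrin chain of hemidesmosomes, fell by 1.52 ± 0.05 in PANC1 (adjusted p = 1.42e-08) and by 0.35 ± 0.05 in BXPC3 (adjusted p = 0.000423). DDR2, a receptor tyrosine kinase for fibrillar collagen, fell by 1.80 ± 0.25 in PANC1 (adjusted p = 0.000157), and DAG1, which encodes dystroglycan, rose by 0.40 ± 0.03 in PANC1 (adjusted p = 4.18e-06) and 0.27 ± 0.03 in BXPC3 (adjusted p = 0.000181). These genes were chosen after their values were seen.

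Of 6 epithelial markers, 5 rose with GelMA in PANC1 and 3 in BXPC3, against 27.7% and 19.4% of all tested genes. Their summed RPKM in PANC1 was 5750 to 6490 in 7.5% GelMA, 6690 to 6820 in 5% GelMA and 4650 to 5460 in collagen.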
